A study of Mus musculus with 3 samples.

Results

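The 7 genes described here carry lactate and pyruvate across membranes (Slc5a8, Slc5a12, Slc16a1, Slc16a3 and Slc16a7) or convert one into the other (Ldha and Ldhb). They were followed in mPTECs, as the labels abbreviate the cells, on the day of isolation and after 1 and 3 days on culture dishes. The genes were found by the name that the array files give each probe, which led to 12 of 41174 probes and to 7 of 19862 named genes. The cells came from kidneys of male mice aged 1 month. The labels name no strain, genotype or drug, and do not say how many animals a sample pooled. The day 0 sample was taken straight after isolation. The day 1 and day 3 samples had been kept in DMEM/F12 medium with insulin, transferrin, selenium, non-essential amino acids, hydrocortisone, antibiotics and 1% fetal bovine serum. Each day was 1 RNA sample on 1 single-colour Agilent array, so no difference has a replicate check, no test was possible and no p-value is given.

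Monocarboxylate carriers move lactate and pyruvate together with a cation. Slc5a8 and Slc5a12 use sodium and belong to the brush border of the kidney proximal tubule, which takes filtered lactate back from the urine. The Slc16 carriers use a proton and run in the direction of the gradient; Slc16a1 is widespread, Slc16a7 has a high affinity for its substrates, and Slc16a3 is known from tissues that release lactate made by glycolysis. Lactate dehydrogenase is a tetramer of chains made by Ldha, typical of glycolytic tissue, and Ldhb, typical of oxidative tissue. The proximal tubule is known for burning lactate and for making glucose from it.

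Signals are given as multiples of the 75th percentile of their array, which was 1184, 1509 and 1515 intensity units on days 0, 1 and 3. Every probe of the 7 genes was a single spot, and 11 of the 12 were well above background on all 3 arrays. The spot errors given by the scanner software leave an error of 0.20 on most log2 ratios between arrays. Repeat spots of 1 probe had a median SD of 0.14 in log2 signal, over 699 values. Different probes of 1 gene had a median SD of 0.34 in the log2 ratio of day 1 against day 0, 0.47 in that of day 3 against day 0 and 0.27 in that of day 3 against day 1. Measured against the 75th percentile, the log2 signal of the spike-in spots differed from day 0 by -0.17 (day 1) and -0.46 (day 3), that of the median spot by -0.21 and -0.31, and that of 10 reference genes by 0.43 and 0.52. Scaling to one of these moves every log2 ratio by that amount in the other direction. Signals of different probes are not comparable with each other, so genes are compared only by their ratios between days. The marker sums given next add such signals, so each sum mostly follows its brightest probes.

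The 10 proximal tubule markers were all well above background on each array. Their summed signal was 859, 149 and 16.2 times the 75th percentile on days 0, 1 and 3. The brightest, Miox, read 372, 98.7 and 3.62, and all 10 were at least 4-fold lower on day 3 than on day 0. Markers of other nephron segments were present on day 0 as well. Those of the loop of Henle summed to 475, 107 and 23.6, led by Umod at 252, 79.4 and 12.2. Of these 5 genes, 4 were at least 4-fold lower on day 3 than on day 0, while Cldn16 read 1.44, 0.534 and 2.65. Those of the distal tubule and principal cell summed to 90.2, 8.93 and 3.96, and those of the intercalated cell to 16.5, 5.21 and 0.828. The mesothelium list ran the other way, from 24.1 to 79.6 and 187, and most of that summed signal came from the keratin gene Krt7. By ratio Msln rose most, from 0.0470 to 0.431 and 17.4, or 369-fold by day 3. On day 3 against day 0, Upk3b was 15.5-fold, Krt7 7.06-fold and Lrrn4 2.10-fold higher. The median log2 ratio of this list on day 3 was 3.38. Fibroblast markers summed to 5.26, 4.35 and 10.9, with Col1a2 at 1.97, 0.547 and 7.91 and a median log2 ratio of 0.10 on day 3. By the brightest probes, the collagen genes Col1a1, Col1a2 and Col3a1 were then 7.12-fold, 4.02-fold and 3.05-fold higher than on day 0. The log2 ratios of Pdgfrb, Dcn and Lum were -0.88, -0.96 and -0.80, and that of Pdgfra was 0.10. Macrophage markers summed to 14.2, 10.7 and 17.2, with Lyz2 at 12.0, 6.12 and 13.4 and a median log2 ratio of -0.04 on day 3. Of these 7 genes, 5 lay within 2-fold of day 0 on day 3. Cd68 was 12.2-fold higher on day 1 and 5.07-fold higher on day 3, and Cd14 was 2.43-fold higher on day 3. Endothelium markers summed to 23.2, 12.6 and 5.37, podocyte markers to 9.02, 1.82 and 2.35, and erythroid markers to 7.27, 0.982 and 0.210. In these bulk samples fewer cells of a type and less RNA per cell cannot be told apart, and the part of the cell mixture in the results that follow was not tested.

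On day 1, 4 of the 7 genes stood at least 4-fold from day 0: Slc5a8, Slc5a12 and Slc16a7 were lower and Slc16a3 was higher. Of the 18905 genes measured in that comparison 8.52% stood that far apart, the higher ones making 3.37% and the lower ones 5.15% of all genes. A further 2 members, Slc16a1 and Ldha, lay within 2-fold of day 0, as did 71.2% of all genes. On day 3 the count was 5 of 7, now with Ldhb among the lower genes, against 13.1% of 19102 genes, of which the higher ones made 5.32% and the lower ones 7.81% of all genes. The same 2 members lay within 2-fold, as did 62.1% of all genes. From day 1 to day 3, 0 of the 7 genes differed by 4-fold, where 2.88% of 19001 genes did, 1.62% of all being higher and 1.27% lower. In that step 4 of the 7, Slc5a8, Slc16a1, Ldha and Ldhb, lay within 2-fold, beside 85% of all genes. The median log2 ratio of the 7 genes was -1.67 for day 1 and -2.12 for day 3, both against day 0, beside -0.11 and -0.10 over all genes. For day 3 against day 1 it was -0.10, beside -0.04 over all genes. The 3 comparisons share arrays and are not independent of each other.

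**Figure D1:**
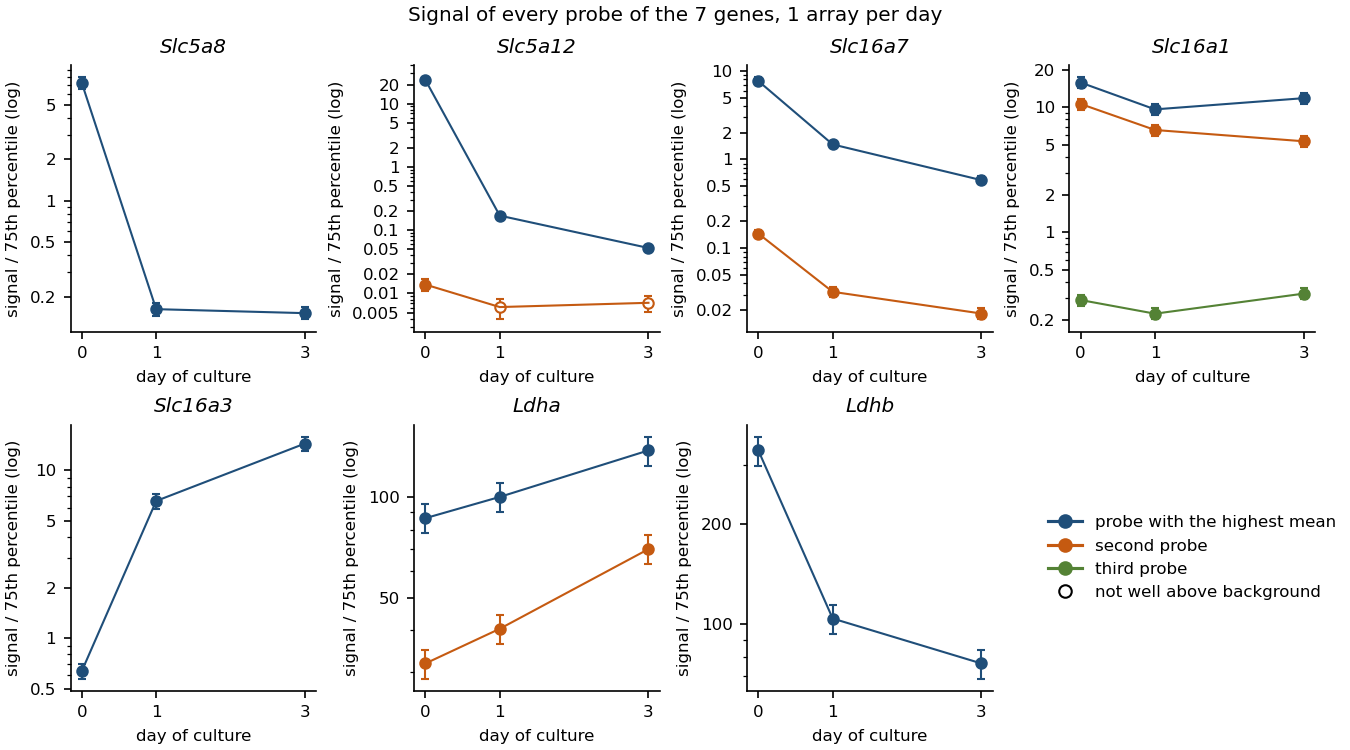
Signal of every probe of the 7 genes over the 75th percentile of its array (log axis) against the day of culture, with 1 array per day; bars are the scanner software's error for the spot, and open points were not well above background. Slc5a8 goes from 7.21 to 0.162 by day 1 and is at 0.152 on day 3, while Slc16a3 goes from 0.636 to 14.4.

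Of the sodium-coupled carriers, Slc5a12, the one with the lower affinity for lactate, read 23.6 on day 0, 0.170 on day 1 and 0.0523 on day 3. It was high only on day 0, 139-fold lower on day 1 and 451-fold lower on day 3, or -7.12 and -8.82 in log2. No other gene of the 18905 had a lower ratio on day 1, and on day 3 it ranked 5 from the lowest of 19102. From day 1 to day 3 it was a further 3.25-fold lower, a log2 ratio of -1.70 that was -0.96 with normexp background correction. These values come from the probe at chr2:110487726-110487785 (mouse build mm9, plus strand), which the array file assigns to a RefSeq transcript.

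The second probe named Slc5a12 lies 47703 bases away, at chr2:110439964-110440023, and is assigned to a cDNA clone. It read 0.0138 on day 0, 0.00610 on day 1 and 0.00712 on day 3, and was well above background on day 0 alone. It therefore gives only bounds, nominally at least 1.30-fold lower on day 1 and at least 1.48-fold lower on day 3. In log2 these are -0.38 and -0.56, beside spot errors of 0.60 and 0.50 on the ratios, so this probe shows no clear difference. A bound here sets the day 0 signal against the lowest signal among well-detected probes of the later array.

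Slc5a8, the carrier of higher affinity, which also takes up short-chain fatty acids, read 7.21 on day 0, 0.162 on day 1 and 0.152 on day 3. Its single probe lies at chr10:88391888-88391947 (mm9, plus strand). The signal was high on day 0 and low on both later days, 44.5-fold lower on day 1 and 47.5-fold lower on day 3. It ranked 13 from the lowest of 18905 genes on day 1 and 108 from the lowest of 19102 on day 3. From day 1 to day 3 its log2 ratio of -0.10 was smaller than the spot error of 0.21, and it took the other sign with median centring (0.0011), quantile normalization (0.0017) and spike-in scaling (0.19).

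The carriers of this pair both had a day 1 signal far below that of day 0, and their later steps differed. The log2 ratio of Slc5a12 minus that of Slc5a8 was -1.64 for day 1 and -3.24 for day 3, both against day 0. For day 3 against day 1 the difference was -1.60. With 1 array per day these differences have no test.

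Among the proton-coupled carriers, Slc16a7 read 7.67 on day 0, 1.48 on day 1 and 0.585 on day 3 by its brighter probe (chr10:124664784-124664843, mm9, minus strand). Each day was lower than the one before. Day 1 was 5.19-fold lower and day 3 13.1-fold lower than day 0, and day 3 was 2.53-fold lower than day 1. A dimmer probe, at chr10:124663576-124663635, read 0.146, 0.0322 and 0.0183. It showed the same order of days, with 4.54-fold lower signal on day 1 and 7.98-fold lower signal on day 3.

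Slc16a3 went the other way, at 0.636 on day 0, 6.57 on day 1 and 14.4 on day 3 (chr11:120820023-120820082, mm9, plus strand). It was 10.3-fold higher on day 1 and 22.7-fold higher on day 3 than on day 0, which ranked it 136 from the highest of 18905 genes and 174 from the highest of 19102. Day 3 was 2.20-fold higher than day 1. This was the one member at least 4-fold higher on either day. Of the 13 alternative settings, only the other scalings, normexp background correction and leaving out the trend correction could move its ratios. With these it stayed past 4-fold, at log2 ratios of 2.94 to 3.58 on day 1 and 3.99 to 4.96 on day 3. A single probe, unflagged and well above background on each array, reads the gene. Settings for probe choice, filters, outlier spots and gene names therefore could not change its value, and the authors' table holds the same ratios.

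Slc16a1 stayed nearest to its day 0 signal among the carriers, and its 3 probes disagreed on what followed day 1. The brightest probe (chr3:104460941-104461000, mm9, plus strand) read 15.7, 9.60 and 11.8 on days 0, 1 and 3. The second (chr3:104460835-104460895) read 10.6, 6.57 and 5.34, and the dimmest (chr3:104457083-104457142) read 0.288, 0.224 and 0.324. All 3 were lower on day 1, with log2 ratios of -0.71, -0.69 and -0.36. On day 3 against day 0 they gave -0.42, -0.99 and 0.17, so the direction depended on the probe, and spike-in scaling turned the brightest probe to 0.04 as well.

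The dimmest probe lies 3693 bases upstream of the others, and its sequence is shown because its day 3 sign differed from theirs. The other sequence below is the second Ldha probe, whose 60 bases lie on a genomic span of 930 bases in the array file, that is, across an intron, so that it reads spliced RNA. Both are given as the array file lists them.
Slc16a1 upstream probe: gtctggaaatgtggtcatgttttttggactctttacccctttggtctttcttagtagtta
Ldha intron-spanning probe: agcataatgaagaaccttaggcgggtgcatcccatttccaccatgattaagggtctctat

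Relative to day 0, the log2 ratio of Slc16a3 exceeded that of Slc16a1 by 4.08 on day 1 and by 4.92 on day 3 by the brightest probes. Over the 3 Slc16a1 probes the day 3 difference ran from 4.34 to 5.50. It exceeded that of Slc16a7 by 5.74 on day 1, and on day 3 by 8.22 or, with the dimmer Slc16a7 probe, by 7.50. With 1 array per day the spread between samples behind these differences is unknown.

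**Figure D2:**
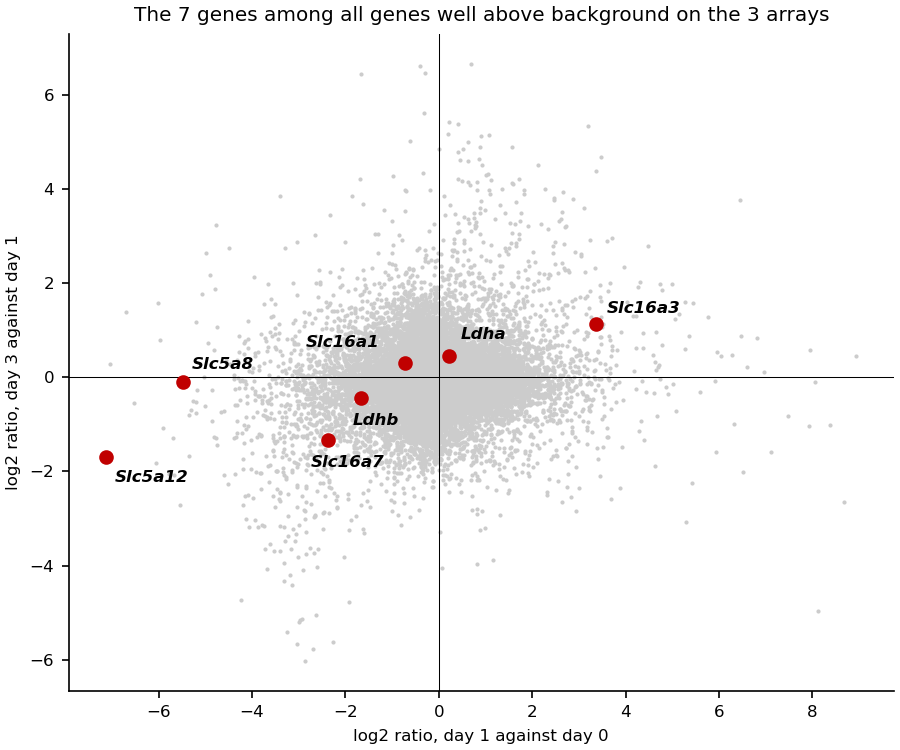
Log2 ratio of day 1 against day 0 (horizontal axis) and of day 3 against day 1 (vertical axis) for all genes well above background on the 3 arrays (grey points) and the 7 lactate genes (red), 1 array per day. Slc5a12 lies at -7.12 and -1.70, Slc5a8 at -5.47 and -0.10, and Slc16a3 at 3.37 and 1.14; the axes share the day 1 array.

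Ldha, the chain typical of glycolytic tissue, read 86.5 on day 0, 100.2 on day 1 and 138 on day 3 by its brighter probe (chr7:54110889-54110948, mm9, plus strand). The intron-spanning probe shown above (chr7:54109426-54110355) read 31.7, 40.3 and 69.9. Both were lowest on day 0 and highest on day 3. On day 1 the ratios were 1.16-fold and 1.27-fold higher, and on day 3 1.60-fold and 2.20-fold higher. The day 1 log2 ratio of 0.21 was about as large as the spot error and became -0.22 with reference gene scaling. The day 3 log2 ratio of 0.68 was 0.16 with that scaling.

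Ldhb, the chain typical of oxidative tissue, read 332 on day 0, 104 on day 1 and 76.4 on day 3 (chr6:142438838-142438897, mm9, minus strand, a single probe). It was 3.19-fold lower on day 1 and 4.35-fold lower on day 3 than on day 0, and 1.36-fold lower on day 3 than on day 1. That last step was -0.45 in log2, but -0.07 without the multiplicative trend correction, -0.06 with normexp background correction and -0.16 with spike-in scaling, so its size depended on these settings. The day 3 ratio lay close to the 4-fold mark: in log2 it was -2.12, and under 4 of the 13 alternatives it was short of 4-fold. Those 4 were median centring (-1.81), spike-in scaling (-1.66), normexp background correction (-1.66) and leaving out the multiplicative trend correction (-1.68). The trend correction was in effect on days 0 and 1, where it multiplied the Ldhb spot by 1.36 and 1.31, and not on day 3, where 100% of the spots well above background kept their background-subtracted signal within 0.1%. With reference gene scaling Ldhb was past 4-fold on day 1 too, at -2.11.

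The difference between the dehydrogenase genes does not depend on a scaling that moves all probes alike. The log2 ratio of Ldha exceeded that of Ldhb by 1.89 on day 1 and by 2.80 on day 3, so the ratio of their signals was 3.69 times and 6.95 times its day 0 value. With the intron-spanning Ldha probe the differences were 2.02 and 3.26. Settings that move probes unequally did change the difference on day 3. Without the multiplicative trend correction the brighter Ldha probe had a log2 ratio of 0.66 and Ldhb -1.68, and with normexp background correction 0.67 and -1.66. Both give a smaller difference than 2.80. By size, the Ldhb log2 ratio of -1.67 made up more of the day 1 difference than the 0.21 of Ldha.

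**Figure D3:**
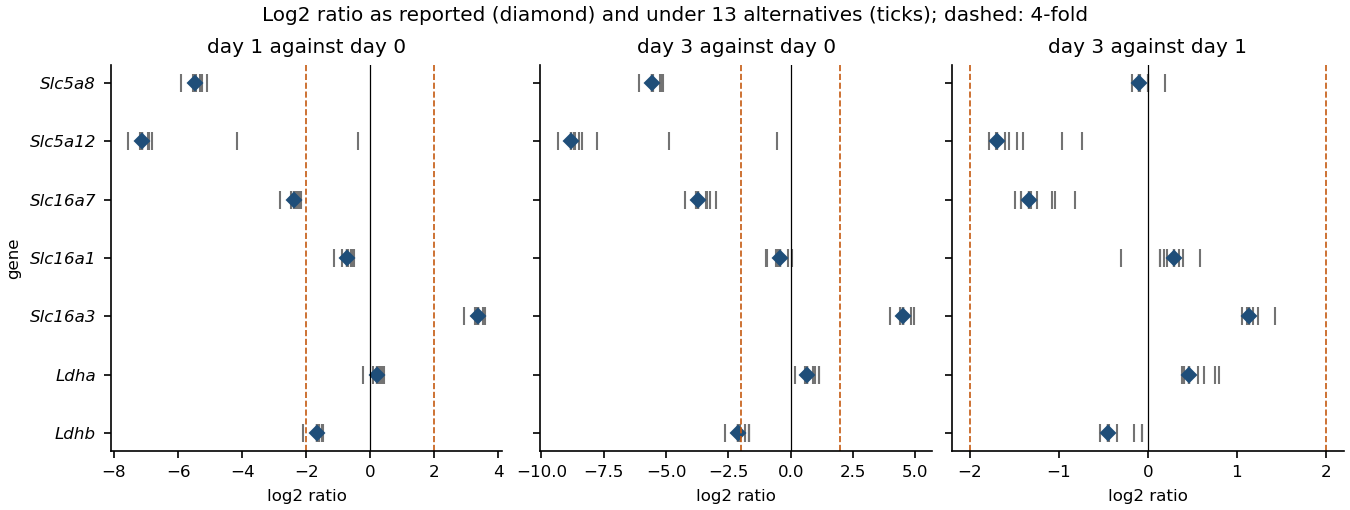
Log2 ratio of each gene in the 3 comparisons as reported (diamonds) and under 13 alternative settings (ticks); dashed lines mark 4-fold. The day 3 ticks of Ldhb lie on both sides of 4-fold, from -2.64 to -1.66, and those of Slc16a1 reach from -0.99 to 0.04; the ticks of Slc5a12 nearest to 0 use its second probe, which was not well above background on days 1 and 3.

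The other genes of both carrier families were also lower or little different. Of 11 other Slc16 genes, 5 were below day 0 by 4-fold or more on day 3 and 0 above it by as much, with a median log2 ratio of -1.93. The lowest were Slc16a4, 126-fold lower, and Slc16a14, 19.2-fold lower. Slc16a6 was the only one with a ratio above 0, at 0.21. With median centring or spike-in scaling 2 of the 11 were above 0 and 3 were lower by 4-fold or more, and with reference gene scaling the counts were 0 and 7. Slc16a3 was thus the one Slc16 gene of those measured that was 4-fold higher on day 3.

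Of 11 other Slc5 genes, 6 were lower by 4-fold or more on day 3 and 0 higher, with a median of -2.62. Slc5a11, a sodium and inositol cotransporter, was 17.0-fold lower on day 1 and 96.7-fold lower on day 3. Slc5a2, the main glucose cotransporter of the early proximal tubule and one of the markers above, was 4.09-fold lower on day 1 and 58.0-fold lower on day 3. On day 1 the ratio of Slc5a2 was therefore far smaller than the 139-fold of Slc5a12 or the 44.5-fold of Slc5a8.

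Partners of the carriers showed smaller differences apart from 1 gene. Bsg, the chaperone that brings Slc16a1 and Slc16a3 to the membrane, read 5.51 on day 0, 4.23 on day 1 and 5.96 on day 3, log2 ratios of -0.38 and 0.11. Emb, the chaperone of Slc16a7, had -0.89 and -0.39, and another of its probes gave 0.06 on day 3. Pdzk1, a scaffold of the brush border that binds apical transporters, was 13.7-fold lower on day 1 and 19.2-fold lower on day 3. It was the 1 of 4 genes in this list that passed 4-fold.

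Of 4 other genes of the lactate dehydrogenase type, 1 was at least 4-fold lower on day 3 and 0 were higher, or 2 and 0 with reference gene scaling. That gene was Ldhd, the mitochondrial enzyme for D-lactate, 2.79-fold lower on day 1 and 7.04-fold lower on day 3, although the dimmer of its probes was short of 4-fold on day 3, at -1.53 in log2. Of 13 measured genes for the entry of pyruvate into mitochondria, 4 were lower by 4-fold or more on day 3 and 0 higher, with a median of -0.80. Pdk4, a kinase that shuts the pyruvate dehydrogenase complex, was 22.6-fold lower, and Pcx, pyruvate carboxylase, was 7.45-fold lower. The remaining ones past 4-fold were Pdk2, at 5.03-fold lower, and Mpc2, a subunit of the mitochondrial pyruvate carrier, at 4.53-fold lower. With spike-in scaling 2 of the 13 were past 4-fold, Pdk2 and Mpc2 not among them, with median centring 3, and with reference gene scaling 6.

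Most glycolysis genes lay on the side of Ldha by their brightest probe. Of the 15 genes reported, 14 had a log2 ratio above 0 on day 1 and 14 on day 3. The medians were 0.55 and 0.90, beside -0.11 and -0.10 over all genes. Other probes of Tpi1, Hk1, Pfkp and Pfkfb3 were below 0 on both days, down to -2.03 and -2.09 for Tpi1 and -0.79 and -2.63 for Hk1. All probes of Aldoa, Gapdh, Pgk1 and Pkm were above 0 on both days. With reference gene scaling these counts were 10 and 12, with medians of 0.12 and 0.39. By the 4-fold mark, 3 were higher and 1 lower on day 3; with reference gene scaling 1 was higher and 1 lower, and with spike-in scaling or median centring 4 were higher and 0 lower. Hk2, the hexokinase of muscle and of growing cells, read 0.0652 on day 0, 16.1 on day 1 and 23.9 on day 3, 246-fold and 367-fold higher. Pkm, pyruvate kinase of non-hepatic tissue, was 5.66-fold higher on day 3, although its 3 probes ranged from 0.34 to 2.50 in log2, and the glucose carrier Slc2a1 was 5.10-fold higher. The lower gene was Pfkm, a phosphofructokinase chain, at 4.34-fold, short of that mark with the latter scalings.

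Of 4 measured gluconeogenesis genes, 3 were lower and 1 was higher by 4-fold or more on day 3. G6pc, which releases free glucose, was 50.9-fold lower on day 1 and 215-fold lower on day 3. Fbp1, fructose-bisphosphatase, was 6.07-fold and 98.7-fold lower, and Slc37a4, the glucose 6-phosphate carrier, 19.6-fold and 19.8-fold lower. The gene on the other side was Pck2, the mitochondrial form of phosphoenolpyruvate carboxykinase, 2.53-fold higher on day 1 and 5.93-fold higher on day 3. Pck1, the cytosolic form of that enzyme, was on the list of 5 but had no measured value.

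Of 9 genes for the lactate receptor and for regulators, 3 were at least 4-fold lower on day 3 and 0 higher, or 5 and 0 with reference gene scaling. Ppargc1a, a coactivator of mitochondrial genes, was 13.2-fold lower. Hnf4a, a transcription factor of the proximal tubule and also one of the markers, was 10.6-fold lower by its brightest probe, with probes from -3.91 to -0.87 in log2. Epas1, a hypoxia-inducible factor, was 6.32-fold lower, whereas its relative Hif1a had log2 ratios of 0.97 on day 1 and 0.47 on day 3.

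**Figure D4:**
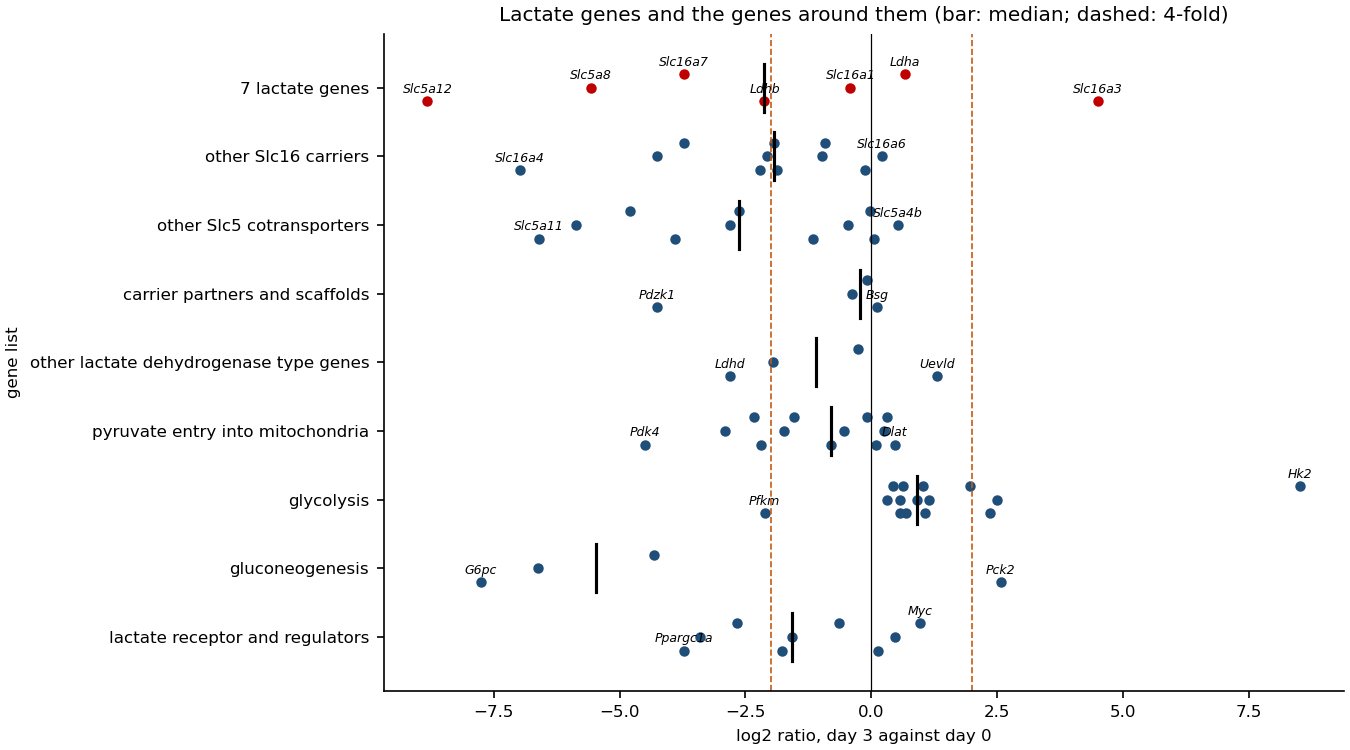
Log2 ratio of day 3 against day 0 for the 7 lactate genes (red) and 8 lists of related genes (blue), 1 point per gene; black bars are list medians and dashed lines mark 4-fold. The glycolysis list has its median at 0.90 and the gluconeogenesis list at -5.47, while the 7 genes spread from -8.82 for Slc5a12 to 4.51 for Slc16a3.

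Promoter sequence was set beside the values of the genes on opposite sides. The RefSeq promoter table (GRCm38.p6, a different build from that of the probes) matched 5 of the 7 genes with 6 windows, the 250 bases before each start. They were searched on both strands for ACGTG, one form of the core of the hypoxia response element, which CACGTG, an E-box, overlaps. ACGTG was present in 16.6% and CACGTG in 6.02% of all 32851 windows of that length. Among the members, ACGTG was found in 3 of the 6 windows, those of 3 of the 5 genes. It was at 3 places before the first start of Ldha, 2 of them CACGTG, at 2 places in Slc16a3 and at 1 place in Slc16a1. Slc5a8, Ldhb and the other start of Ldha had no ACGTG. Slc5a12 and Slc16a7, both lower on days 1 and 3 than on day 0, had no window to search. The other form of the core, GCGTG, was not searched for, and each of the 3 windows without ACGTG contains it on at least 1 strand. The search thus does not set those 3 windows apart from the windows with ACGTG by the hypoxia core as a whole. GTTAAT, part of the Hnf1 motif and present in 6.43% of windows, did not occur in any of the 6. The windows of Ldha (chr7:46845554-46845803), Slc16a3 (chr11:120948817-120949066) and Slc5a8 (chr10:88885742-88885991), all on the plus strand, are printed to show these places, with matches to ACGTG or its reverse complement in capitals. A match is a description of the letters only.
Ldha: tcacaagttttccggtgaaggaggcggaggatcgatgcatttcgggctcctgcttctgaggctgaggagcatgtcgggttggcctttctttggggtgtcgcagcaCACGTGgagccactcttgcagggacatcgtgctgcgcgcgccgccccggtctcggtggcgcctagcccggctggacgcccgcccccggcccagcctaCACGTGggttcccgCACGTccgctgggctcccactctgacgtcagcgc
Slc16a3: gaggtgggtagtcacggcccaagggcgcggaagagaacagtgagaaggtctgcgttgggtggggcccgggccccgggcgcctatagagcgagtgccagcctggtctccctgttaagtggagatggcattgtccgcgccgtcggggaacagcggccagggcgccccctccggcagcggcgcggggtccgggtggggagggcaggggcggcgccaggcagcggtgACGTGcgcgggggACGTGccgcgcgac
Slc5a8: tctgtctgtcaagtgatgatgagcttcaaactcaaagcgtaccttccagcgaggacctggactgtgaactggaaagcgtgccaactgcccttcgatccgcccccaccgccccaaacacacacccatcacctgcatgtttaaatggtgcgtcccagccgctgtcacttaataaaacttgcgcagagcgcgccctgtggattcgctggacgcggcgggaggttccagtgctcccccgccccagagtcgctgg

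The matches in Slc16a3 lie 27 and 14 bases before its start, and those of Ldha 145, 48 and 34 bases before. The GC content of the windows was 67.2% for Ldha, 73.6% for Slc16a3, 76.4% for Slc16a1, 58.8% for Slc5a8, 56.4% for Ldhb and 54.4% for the other start of Ldha, so the 3 windows with a match were the GC-richer ones. The part of base composition in the matches was not tested.

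The genes whose pattern over the 3 arrays came nearest were found by the Euclidean distance in the 2 log2 ratios (day 1 against day 0, day 3 against day 1) among 18328 genes. For Slc5a8 they were Nap1l5 at 0.09, Smlr1 at 0.35 and Slc7a9, a brush border cystine transporter subunit, at 0.46. For Slc5a12 the nearest were Acnat2 at 1.07, Trim63 at 1.30 and Clec2h at 1.35. Slc16a3 had Glipr2 at 0.14, Ttc9 at 0.15 and Bok at 0.18 nearby. Ldha, whose ratios are small, had many close neighbours, the nearest being Cdc25a at 0.0035 and Ripk2 and Bcl2l12 at 0.02. These distances rest on 3 arrays and describe likeness in these arrays only.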

How the data were processed

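Gene expression was measured on 3 Agilent single-colour arrays of 45018 spots (1639 controls), 1 each for days 0, 1 and 3. Per the file headers, Feature Extraction 10.5.1.1 made the deposited intensity values, subtracting background and correcting a multiplicative trend (switched on for all arrays, without effect on day 3); the submitters' processing notes name version 9.1. The outlier and background flags are those deposited in the same files. The authors' deposited table of ratios equalled the intensity over the 75th percentile within 0.001 for all 43379 values per array, so its scale and direction are known.

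Each intensity was divided by its array's 75th percentile of non-control spots and log2 taken (Python 3.11.15, numpy 2.4.6, pandas 2.3.3). Outlier spots were left out, spots of a probe averaged, and each gene was read by its brightest probe on average. Probes were named through RefSeq by accession (26888), symbol (5025) or synonym (832). A gene was measured if well above background on at least 1 of the 2 arrays compared, and counted from 4-fold. The calculation was tested on simulated data. Alternatives were 4 other scalings, normexp background (limma 3.58.1 in R 4.3.3, offset 50), no trend correction, the authors' table, 2 other probe choices, 2 filters, kept outlier spots and the file's own gene names. Scaling to 10 reference genes was added after the files were seen and before its values were.

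The members and lists were chosen with earlier results of these data known. One gene of the glycolysis list is not reported here, and the counts and medians of that list leave it out. Named were all members, the 2 genes of each list farthest from day 0 on day 3 in each direction if past 4-fold, relatives and partners compared with a member, and the 3 genes nearest in pattern to 4 members. Pdk2, Mpc2, Slc2a1, Slc37a4, Epas1, Hif1a and Slc16a6 were named after their values were seen. The number of arrays limits the precision.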

Additional observations from a re-analysis of the deposited data

How the results depend on the processing

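With 1 array per day no array could be left out. No paired analysis was possible because each day has 1 array and the only shared number is 1. The count of members at least 4-fold from day 0 was 3 to 5 on day 1 and 4 to 5 on day 3 over the 13 alternatives, and 0 for day 3 against day 1 throughout. Among all genes, the count for day 3 against day 1 was 347 with normexp background correction in place of 548; the cause was not tested. The share of higher genes among those past 4-fold moved with the scaling. It was 39.6% for day 1 against day 0, but 51.7% with median centring and 20.5% with reference gene scaling. It was 40.6% for day 3 against day 0, but 56.3% with median centring, 63.6% with spike-in scaling and 20.1% with reference gene scaling. For day 3 against day 1 it was 56.0%, and 74.2% with spike-in scaling. Of 272 values of single members under an alternative, 233 kept their sign and moved by less than the median SD between probes, 39 did not, and 0 of the ratios past 4-fold changed sign. Many of these values could not move. Other probe choices leave a gene with a single probe as it is. The authors' table holds nearly the same ratios, and no member spot was flagged as an outlier. The 2 filters and the file's own gene names left each member's ratio unchanged. Reference gene scaling shifts the ratios against day 0 by 0.43 and 0.52, more than the median SDs of 0.34 and 0.47, so those values had to move. The count of 233 is therefore no measure of robustness. The second probe of Slc5a12 gave no value for day 3 against day 1, since it was not well above background on either array.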

Other observations

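A further probe is assigned to Slc16a7 by the RefSeq table although the array file names it 9030411M13Rik, so it was outside the rule that chose the probes. It lies at chr10:124659387-124659446 (mm9, minus strand) and read 0.0944 times the 75th percentile on day 0, 0.0138 on day 1 and 0.00779 on day 3. It was 6.82-fold lower on day 1 and, not being well above background on day 3, at least 10.1-fold lower then. The 2 probes that bear the name Slc16a7 were 5.19-fold and 4.54-fold lower on day 1. Hcar1, the lactate receptor, read 0.0235, 0.0255 and 0.0259 on the 3 days, near the lowest signals counted as well above background, which were 1.14%, 1.06% and 0.936% of the 75th percentile.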
